A study of Mus musculus with 8 samples.

Results

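The genes described here are 42 skeletal muscle genes whose signals vary between samples of mouse gonadal white fat. They encode proteins of the muscle filaments, the calcium release system and the energy supply of muscle fibres, and they were chosen because their signals differed so widely between arrays. The variation between arrays and the covariation are therefore given as a description, with no test. A gene was measured when a probe matching one of its RefSeq transcripts had a signal well above background on 4 or more arrays, and its brightest such probe stood for it. This held for 41 of the 42 genes, among 25065 genes or features tested on the arrays. Each of the 41 genes was above background on at least 6 arrays, and Myh4, Mylpf, Xirp2 and Casq1 stood at 6. Jph1, whose product holds the calcium release membranes together, stood just outside the limit, above background on 3 arrays, and is not described further.

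RAP1 is a protein of the telomere cap that also binds along chromosome arms, and the study asked how its loss alters transcription in fat before the knockout mice become obese. Total RNA of gonadal white fat was hybridised to 8 one-colour arrays (4 Rap1-/- and 4 wild-type, WT), all from mice on a C57BL6/129SV background (90%:10%) and at an age of 10 weeks. The study describes these mice as females. The Rap1-/- mice descend from floxed Rap1 mice crossed with mice that express Cre from the adenovirus EIIa promoter early in development, so the deletion is constitutive and present in the whole body, and the Cre allele was later bred out. The labels describe the 4 samples of a genotype as replicates and name no animal, so p-values measure the spread between these samples. Each signal is given as log2 relative to the 75th percentile of its array, so that 0 is the signal at this percentile and a step of 1 is a doubling.

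Skeletal muscle contracts when thick filaments of myosin slide along thin filaments of actin within the sarcomere, which is bounded by Z-discs and held in register by giant proteins. Calcium released from internal stores binds troponin on the thin filament and starts the contraction. Fast and slow fibres use different genes for the same part, so that myosin heavy chain, the troponins and the calcium handling proteins each come in fast and slow forms. White fat cells do not build sarcomeres. In bulk tissue of this kind, fewer muscle cells and less muscle RNA per cell cannot be told apart.

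RefSeq promoter sequences of GRCm38.p6 were found for 29 of the 42 genes, and the 250 bases before the start were searched on both strands, with any start of a gene counted. CAGCTG, a form of the E-box bound by myogenic factors, stood in 14 of the 29 (48.3%), against 14.7% of 27025 genes. CATTCC, the core of the M-CAT motif, stood in 9 (31.0%), against 14.4% of all genes, and TATAAA in 5 (17.2%), against 14.3%. The CArG box, bound by serum response factor, was matched in 4 (13.8%), namely Acta1, Myh4, Ldb3 and Myom1, against 1.62% of all genes. The MEF2 site was matched in 2 (6.90%), Ttn and Xirp2, against 0.592%. No motif contained another, although matches may overlap, and a match of letters is a description and not a binding site. The 5 sequences below are shown because their genes cover the thick filament, the thin filament of fast and slow fibres, the calcium store and the energy supply. Each of these genes had 1 start among the promoter sequences. The sequences run 5′ to 3′ and end at the base before the start, with CAGCTG in capitals. They lie at chr11:67237562-67237811 (plus strand, Myh4), chr8:123894776-123895025 (minus strand, Acta1), chr7:4515976-4516225 (minus strand, Tnnt1), chr1:172219896-172220145 (minus strand, Casq1) and chr7:19410844-19411093 (plus strand, Ckm).
Myh4: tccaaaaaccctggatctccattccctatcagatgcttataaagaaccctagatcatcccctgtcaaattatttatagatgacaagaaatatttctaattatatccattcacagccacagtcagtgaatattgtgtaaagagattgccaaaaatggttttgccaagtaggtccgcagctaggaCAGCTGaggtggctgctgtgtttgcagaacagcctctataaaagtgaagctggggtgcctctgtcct
Acta1: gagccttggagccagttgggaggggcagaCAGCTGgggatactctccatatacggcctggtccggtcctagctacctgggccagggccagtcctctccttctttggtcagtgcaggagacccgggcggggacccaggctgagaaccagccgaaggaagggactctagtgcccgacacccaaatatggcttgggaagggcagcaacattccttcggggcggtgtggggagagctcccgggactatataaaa
Tnnt1: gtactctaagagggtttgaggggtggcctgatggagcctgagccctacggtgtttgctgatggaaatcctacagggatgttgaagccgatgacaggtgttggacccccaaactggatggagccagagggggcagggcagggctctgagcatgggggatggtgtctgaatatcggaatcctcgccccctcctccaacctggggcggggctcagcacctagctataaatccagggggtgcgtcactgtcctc
Casq1: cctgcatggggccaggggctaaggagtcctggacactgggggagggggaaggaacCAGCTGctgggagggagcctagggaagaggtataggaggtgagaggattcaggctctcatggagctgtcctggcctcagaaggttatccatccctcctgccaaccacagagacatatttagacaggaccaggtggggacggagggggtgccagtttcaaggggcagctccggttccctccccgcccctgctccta
Ckm: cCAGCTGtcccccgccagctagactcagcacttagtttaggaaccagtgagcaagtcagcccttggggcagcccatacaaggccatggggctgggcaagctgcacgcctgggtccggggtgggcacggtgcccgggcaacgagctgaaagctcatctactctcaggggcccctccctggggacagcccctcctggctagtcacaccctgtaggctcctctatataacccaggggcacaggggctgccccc
CAGCTG began 67 bases before the start in Myh4, 221 in Acta1, 195 in Casq1 and 249 in Ckm. The window of the slow fibre gene Tnnt1 did not hold these letters and held TATAAA, as did those of Myh4 and Acta1.

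The arrays were of similar quality. The 75th percentile lay between 302 and 497 intensity units, 59.7% to 65.2% of spots passed the background flag and none carried the saturation flag (0 spots). Of the 41 muscle genes, 11 were not above background on Rap1-/- replicate 4, 3 on Rap1-/- replicate 1 and 1 on WT replicate 3. Both genotypes were on both slides, 2 arrays of each per slide, but WT arrays took positions 1 and 2 and Rap1-/- arrays positions 3 and 4, so position and genotype cannot be told apart. On a probe of Terf2ip, the gene of RAP1, the 4 WT arrays read 0.06 to 0.49 and the 4 Rap1-/- arrays were not above background. The other probe of Terf2ip, for which the part of the gene it matches is not given in the sources used here, read 0.84 to 1.06 in Rap1-/- and -1.49 to -1.27 in WT. Of the white adipocyte genes, 10 of 10 were tested and read above the 75th percentile on every array, the lowest being Lep at 1.72 on WT replicate 3. Their mean moved by 0.36 over the 8 arrays.

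The muscle genes varied together by many-fold from array to array, and the spread was widest among the Rap1-/- samples. After each gene was set to its own mean, the average over the 41 genes was -3.04, 2.98, 1.91 and -3.95 in Rap1-/- replicates 1 to 4, and 1.54, -0.07, -0.86 and 1.49 in WT replicates 1 to 4. The muscle genes were thus high in Rap1-/- replicates 2 and 3 and low in replicates 1 and 4, with the 4 WT arrays between them. The range of this average was 6.93 in Rap1-/- and 2.40 in WT. Within slide 1 it was 6.02 in Rap1-/- and 1.61 in WT, and within slide 2 it was 5.86 and 2.35, so both slides held a high and a low Rap1-/- array.

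Gene by gene the pattern was nearly uniform. Rap1-/- replicate 2 was the highest array for 38 of 41 genes, replicate 3 for Myh2 and Sln, and replicate 4 for Ldb3. Rap1-/- replicate 4 was the lowest array for 36 genes and replicate 1 for the other 5, which were Mybpc1, Ldb3, Myom1, Trdn and Pygm. Rap1-/- replicates 1 and 4 both read below all WT arrays for 38 genes, replicates 2 and 3 both read above all WT arrays for 29, and 27 genes did both. The range within Rap1-/- exceeded the range within WT for 41 of 41 genes, with a median SD of 3.58 in Rap1-/- and 1.27 in WT. The first axis of variation held 95.6% of the squared deviations of the 41 genes from their means.

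**Figure D1:**
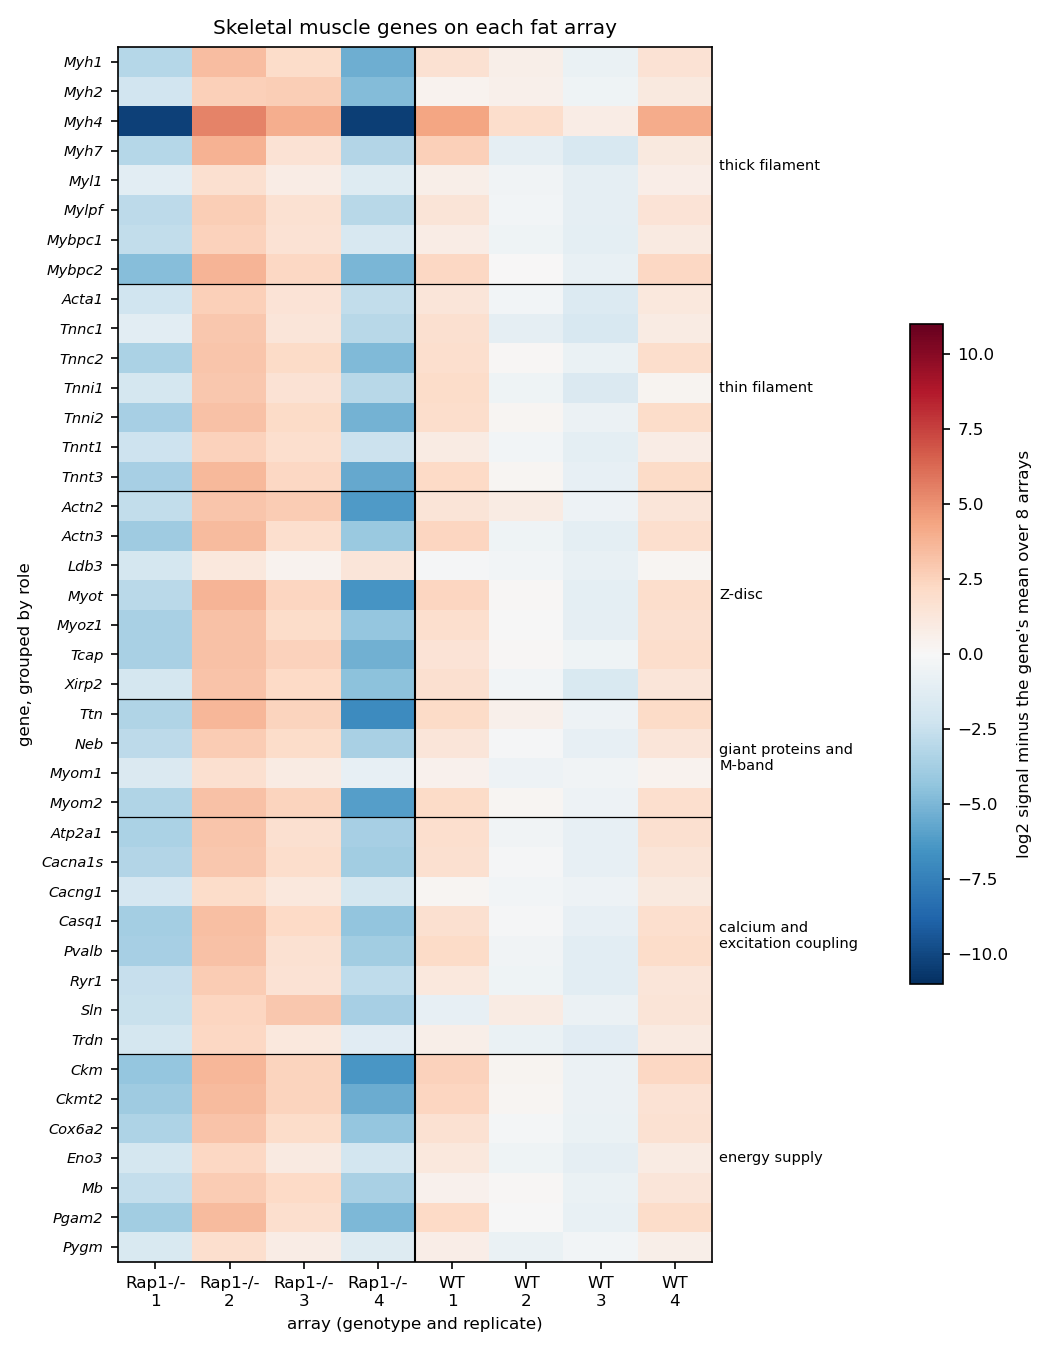
Signal of the 41 measured skeletal muscle genes (rows, grouped by role) on each of the 8 arrays (columns, genotype and replicate), coloured by log2 signal minus the gene's mean over the arrays. Rap1-/- replicates 2 and 3 are red and replicates 1 and 4 blue for nearly every gene, and Ldb3 is the exception with its highest value on Rap1-/- replicate 4.

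The median range over the 8 arrays, as measured, was 7.05 for the muscle genes and 0.61 for all features. Signals not above background were then raised to the lowest signal that was well above background on that array, and a range computed this way is given as "at least". It is not a strict bound, since a signal not above background can read higher than this floor. Tnni1 on Rap1-/- replicate 4 did so, at -5.19 against -5.36. The median range of the muscle genes was then at least 7.03, and 36 of 41 muscle genes (87.8%) ranged by at least 16-fold, against 162 of all features (0.646%). Of the 50 named genes with the widest such range, 28 were among the 42 muscle genes. The range counts were fixed by how the genes were chosen, and nothing is read from them.

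Among the thick filament genes, Myh4, the myosin heavy chain of the fastest fibres, had the widest range of all. It read -7.49, 8.22, 6.80 and -7.54 on the Rap1-/- arrays and 7.18, 4.77, 3.57 and 6.86 on the WT arrays, with Rap1-/- replicates 1 and 4 not above background. The highest array exceeded the lowest by at least 12294-fold, and the 4 WT values lay between the 2 high and the 2 low Rap1-/- values except that WT replicates 1 and 4 passed Rap1-/- replicate 3. Myl1, an essential light chain of fast myosin, had the narrowest range, 3.14, with 4.44, 7.33, 6.44 and 4.19 on the Rap1-/- arrays and 6.20, 5.25, 4.58 and 6.33 on the WT arrays. Its order of arrays was close to that of Myh4 all the same, with Rap1-/- replicate 2 highest and replicate 4 lowest. In all, 7 of 8 thick filament genes were highest on Rap1-/- replicate 2, and their ranges ran from 3.14 to at least 13.59. The heavy chain genes of fast fibres are close relatives, and how much their probes read one another was not tested.

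The 7 thin filament genes, skeletal actin and the troponins, ranged from 4.86 for Tnnt1 to 9.19 for Tnnt3. All 7 were highest on Rap1-/- replicate 2 and lowest on replicate 4. Acta1, the actin of skeletal thin filaments, was above background on all 8 arrays and read 1.82 to 7.14 in Rap1-/- and 2.99 to 5.83 in WT.

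Of the 7 Z-disc genes, Ldb3 varied least. Myot and Actn2 had the widest ranges as measured, but against an array that was not above background. Their ranges were at least 8.32 and at least 7.15, and Tcap, a small protein that binds titin, ranged by 8.48 with all 8 arrays above background. Myot, which encodes the actin cross-linker myotilin, read -3.77, 2.96, 1.57 and -7.24 on the Rap1-/- arrays and 1.59, -0.65, -1.89 and 1.15 on the WT arrays. Actn2, an alpha-actinin that anchors thin filaments, read -4.02, 1.79, 1.45 and -7.51 on the Rap1-/- arrays and 0.14, -0.43, -1.88 and 0.03 on the WT arrays. Both were not above background on Rap1-/- replicate 4, and the highest array exceeded the lowest by at least 320.0-fold for Myot and at least 143-fold for Actn2.

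Ldb3, which encodes a PDZ and LIM domain protein of the Z-disc, went against the other genes on 1 array. It read -1.75, 1.37, 0.57 and 1.55 on the Rap1-/- arrays and 0.05, -0.09, -0.67 and 0.40 on the WT arrays. On Rap1-/- replicate 4, the lowest array for most of the genes, this probe gave its highest signal. The second kept probe of Ldb3 read -1.78, 2.05, 1.22 and -1.35 on the Rap1-/- arrays and 0.97, -0.49, -0.45 and 0.82 on the WT arrays, low on Rap1-/- replicates 1 and 4 like the other genes. The probes differed by up to 2.84 on Rap1-/- replicate 4, after each was set to its mean, so the exception belonged to 1 probe of the gene. Of 10 further probes of 8 genes, 9 had the same highest array as the first probe and 10 the same lowest array. The sizes differed more, since the brighter probe of Pvalb, a calcium buffer of fast fibres, ranged by 7.05 and its second probe by 12.4, with Rap1-/- replicate 4 not above background.

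Of the 4 giant and M-band genes, Ttn, the elastic filament that joins Z-disc and M-band, read -2.29, 4.69, 3.49 and -5.86 on the Rap1-/- arrays and 3.15, 1.62, 0.54 and 3.13 on the WT arrays. Rap1-/- replicate 4 was not above background, and the highest array exceeded it by at least 1067-fold. This was the brightest of 4 kept probes of Ttn. As measured it ranged by 10.6, and the others ranged by 10.1, 6.66 and 5.92. Myom2, which links thick filaments at the M-band, read -2.29, 4.30, 3.50 and -5.01 on the Rap1-/- arrays and 3.15, 1.28, 0.49 and 2.90 on the WT arrays. Its relative Myom1 read -1.64, 1.67, 0.83 and -0.94 on the Rap1-/- arrays and 0.41, -0.64, -0.47 and 0.32 on the WT arrays. Thus Myom2 ranged by 9.31 and Myom1 by 3.31, although the high arrays were the same.

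The 8 calcium handling genes, which include the calcium pump Atp2a1, the release channel Ryr1, the calcium store protein Casq1 and the pump inhibitor Sln, ranged from 3.98 for Cacng1 to at least 7.08 for Casq1, which was not above background on Rap1-/- replicates 1 and 4. Of these, 7 were highest on Rap1-/- replicate 2. The 7 energy supply genes, which include glycolytic enzymes, the muscle creatine kinases and myoglobin, ranged from 3.52 for Pygm to at least 9.64 for Ckm. Ckm, the creatine kinase of muscle cytosol, read -3.60, 4.28, 3.07 and -5.74 on the Rap1-/- arrays and 3.22, 0.97, 0.04 and 2.92 on the WT arrays. Its highest array exceeded Rap1-/- replicate 4, which was not above background, by at least 799.9-fold.

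The 5 slow fibre genes followed the same arrays, with a narrower median range than the 14 fast fibre genes over the 8 arrays but not within WT. Myh7, the slow myosin heavy chain, read -2.39, 4.61, 2.34 and -2.42 on the Rap1-/- arrays and 3.36, -0.22, -0.95 and 1.86 on the WT arrays. Tnni1, slow troponin I, read -4.04, 0.88, -0.50 and -5.19 on the Rap1-/- arrays and -0.09, -2.58, -3.68 and -1.78 on the WT arrays. Tnnc1, the troponin C of slow fibres, read -3.67, 0.52, -1.18 and -5.53 on the Rap1-/- arrays and -0.71, -3.45, -4.25 and -1.62 on the WT arrays. Tnni1 and Tnnc1 were not above background on Rap1-/- replicate 4. Myh7, Tnni1 and Tnnc1 were highest on Rap1-/- replicate 2, and in all 3 the second highest array was WT replicate 1 rather than Rap1-/- replicate 3. Tnnt1, slow troponin T, read -0.11, 4.70, 4.04 and -0.15 on the Rap1-/- arrays and 3.13, 1.86, 1.10 and 2.98 on the WT arrays. Mybpc1, the slow form of myosin-binding protein C, read -1.74, 3.53, 2.63 and -0.75 on the Rap1-/- arrays and 1.83, 0.56, -0.05 and 2.02 on the WT arrays. In Tnnt1 and Mybpc1, Rap1-/- replicate 3 was second highest.

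The median range over the 8 arrays was 7.60 for fast and 6.05 for slow fibre genes as measured, and at least 7.48 and at least 5.89 with signals below background raised. Within WT it was 2.78 and 3.54. The mean of the centred fast fibre genes minus that of the slow fibre genes was -1.56, 0.29, 0.50 and -2.02 in Rap1-/- and 0.27, 0.74, 0.69 and 1.08 in WT. The fast genes were thus lower, relative to the slow ones, on the 2 Rap1-/- arrays where the muscle genes as a whole were low. Without Myh4, which was not above background on these arrays, the difference was -1.06 and -1.58 there and 0.08 to 0.91 on the other 6 arrays. For the 11 fast and 3 slow fibre genes above background on all arrays it was -0.59 and -1.93, against 0.16 to 0.77 on the others. The part of signals near background in this difference was not tested.

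**Figure D2:**
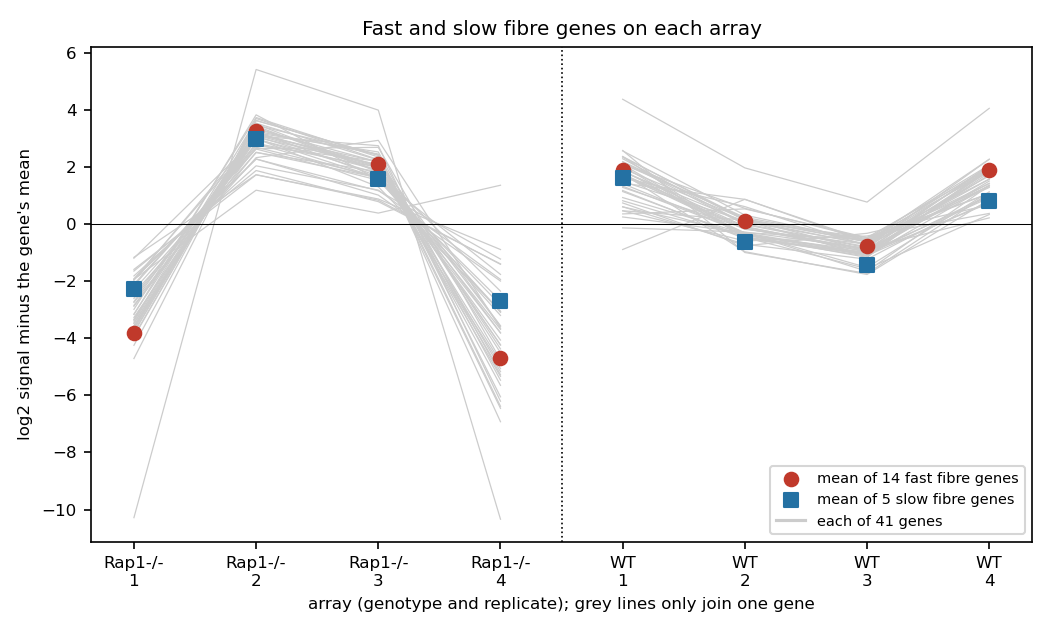
Log2 signal minus the gene's mean (vertical axis) on each of the 8 arrays (horizontal axis, genotype and replicate); grey lines are the 41 genes, circles the mean of 14 fast fibre genes and squares the mean of 5 slow fibre genes. The fast mean lies below the slow mean on Rap1-/- replicates 1 and 4, at -3.82 against -2.26 and -4.70 against -2.68, and above it on the other 6 arrays.

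Arrays with a similar average of the 41 genes still differed in single genes. WT replicates 1 and 4 averaged 1.54 and 1.49, and the median difference between them was 0.06 over all 41 genes and 0.04 over the fast fibre genes. The slow fibre genes had a median difference of 0.92, and 4 of 5 were higher in WT replicate 1, with Tnni1 higher by 1.69, Myh7 by 1.50 and Tnnc1 by 0.92. Genes at the other end were chosen after their values were seen. Sln read -0.21 in WT replicate 1 and 2.11 in WT replicate 4, Cacng1, a calcium channel subunit, -2.86 and -2.04, and Mb, myoglobin, 2.38 and 3.20. Sln thus differed between these arrays in the opposite direction to 4 of the 5 slow fibre genes, of which Tnnt1 differed by only 0.15. Mybpc1, at -0.19 for WT replicate 1 minus WT replicate 4, went in the direction of Sln.

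Rap1-/- replicate 3 and WT replicate 1, which averaged 1.91 and 1.54, gave another such pair. Sln was higher by 3.83 in Rap1-/- replicate 3, Myh2, the heavy chain of fast oxidative fibres, by 2.33, Mb by 1.73 and Actn2 by 1.31. Myh7 was higher by 1.02 in WT replicate 1. The medians were 0.23 over all 41 genes, 0.13 over the fast and -0.40 over the slow fibre genes. Each pair is 1 array against 1 array and has no replicate check.

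**Figure D3:**
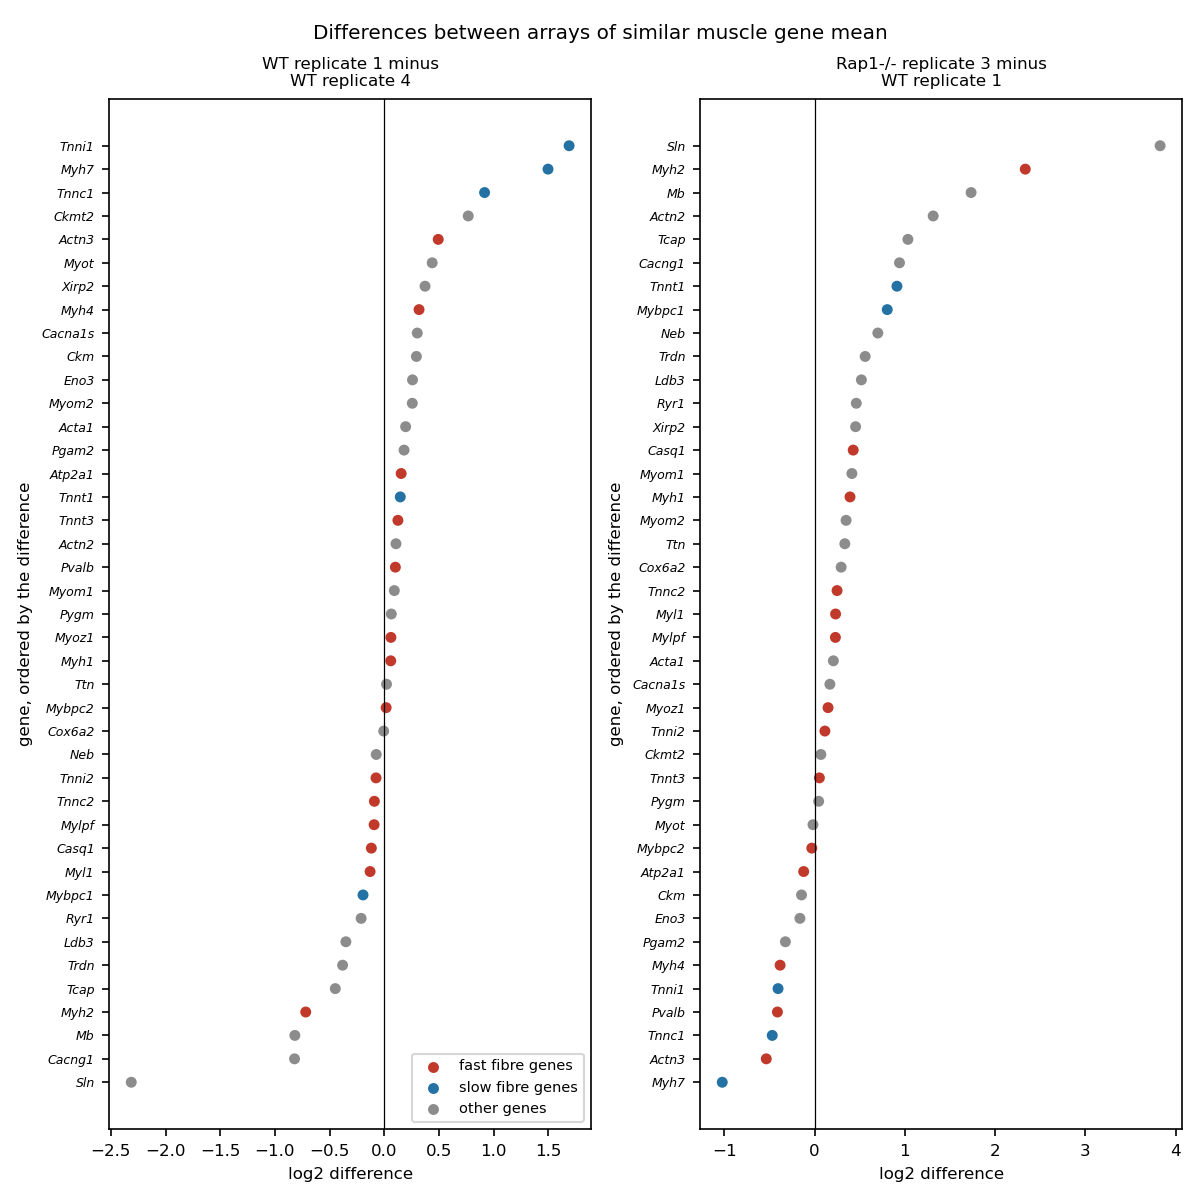
Log2 difference (horizontal axis) of each of the 41 genes (vertical axis, ordered by the difference) between 2 pairs of arrays with a similar average; red points are fast fibre genes, blue points slow fibre genes and grey points the others. Tnni1, Myh7 and Tnnc1 lie highest for WT replicate 1 minus WT replicate 4 and Sln lies lowest at -2.31, while Sln lies highest at 3.83 for Rap1-/- replicate 3 minus WT replicate 1.

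Covariation was also measured after the mean of each genotype was subtracted, as Pearson's r over 8 arrays between each gene and the average of the other 40. The 8 points share their arrays and scaling, and no p is given because the genes were chosen for varying together. The median r was 0.988, and 36 of 41 genes had an r over 0.95. The lowest were Ldb3 at 0.377, Sln at 0.894, Myh2 and Myom1 at 0.947 and Tnnc1 at 0.949. Without Rap1-/- replicates 1 and 4, the arrays farthest from the median, the median r over 6 arrays was 0.993 and 31 genes were over 0.95. Sln then had an r of 0.09 and Myh2 of 0.70, so for these genes the likeness to the rest was weaker without the low arrays. Within Rap1-/- the order of replicates was 2, 3, 1, 4 for 34 of 41 genes. Within WT it was 1, 4, 2, 3 for 23 genes and 4, 1, 2, 3 for 14.

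Outside the 42 genes, 100 of 14884 named genes (0.672%) had an r over 0.95 to the average of the muscle genes. The 10 most alike were Dhrs7c (0.999), Tpm1 (0.998), Vgll2 (0.998), Itgb1bp2, Rpl3l, Lmod3, Klhl41, Ampd1, Asb11 and Ppp1r3a (0.996). Tpm1, a tropomyosin, read 0.94, 7.40, 6.34 and -0.66 on the Rap1-/- arrays and 6.06, 4.23, 3.25 and 6.20 on the WT arrays, with the highest and lowest arrays seen in most of the 42 genes. The fat cell genes Adipoq, which encodes adiponectin, and Plin1, which coats lipid droplets, had an r of -0.35 and 0.25. Adipoq and Plin1 were picked from the white adipocyte genes, and the r of the others is not given. The values of Adipoq and Plin1 therefore do not stand for the fat cell genes as a group.

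Other muscle genes were counted from 4 further lists, with 50 of 60 genes tested. Of these, 42 were highest on Rap1-/- replicate 2 and 26 ranged by at least 16-fold. All 6 further slow fibre genes were highest on this array, and the widest were Myl2, the slow regulatory light chain, with a range of 6.37, and Csrp3 with 6.32. Of 34 other skeletal muscle genes 30 were highest there, and Ampd1, above background on 6 arrays, ranged by at least 7.38 and Art1, above background on 7, by at least 7.24. The ranges of these 34 genes had a median of 4.06 as measured, and that of Synpo2l was 0.38. The 7 tested regulators of myogenesis had a median range of 1.20, and 1 of them ranged by at least 16-fold. Myf6, a myogenic factor, ranged by 4.59. Mstn, the secreted inhibitor of muscle growth, ranged by at least 3.95 with only 4 arrays above background. The others ranged from 0.81 for Mef2c to 1.84 for Msc, and 4 regulators were highest on Rap1-/- replicate 2. Of 3 embryonic and perinatal genes, Myh8 ranged by 9.65, Tnnt2, above background on 6 arrays, by at least 5.08 and Myl4 by 1.16.

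Heart and smooth muscle markers had narrower ranges. The mean of 5 cardiac genes had a range of 0.59, highest on WT replicate 3. Cardiac signals were low, with Myh6 and Mybpc3 above background on only 5 arrays, so signals near background limit this range. The mean of 10 smooth muscle genes had a range of 1.27, from its lowest on WT replicate 1 to its highest on Rap1-/- replicate 2. Of these 10 genes, 4 were highest on Rap1-/- replicate 2. Acta2 and Actg2 were highest on Rap1-/- replicate 4, at 6.29 and 4.93, where the skeletal muscle genes were low. The mean of 9 brown fat genes, a list that includes Cox7a1 and Cpt1b of oxidative tissues, had a range of 1.50. It was highest on Rap1-/- replicate 2 and lowest on replicate 1, but only 3 of the 9 genes were highest on Rap1-/- replicate 2. Ucp1 and Cidea were highest on WT replicate 4, at -1.18 and 3.69. The part of these cells in the muscle signal was not tested.

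Between the genotypes, none of the muscle genes passed the test. For the 41 centred genes together, the 4 Rap1-/- arrays averaged -0.52 ± 3.48 (SD, n = 4) and the 4 WT arrays 0.52 ± 1.19 (SD, n = 4), so the genotypes differed by less than the spread within Rap1-/-. With limma over all 25065 features, 0 of 41 had an adjusted p under 0.05, against 0.00399% of all features (1, Terf2ip). Terf2ip was called as higher in Rap1-/-, on its brighter probe. Its probe that was not above background in Rap1-/- did not stand for the gene. An unadjusted p under 0.05 was reached by 0 of 41, against 4.98% of all features, and the 4 Rap1-/- and 4 WT arrays did not overlap for 0 of 41, against 3.26%. The Rap1-/- mean was lower for 36 of 41 genes, against 59.9% of all features, with a median difference of -1.09 against -0.04. The size of this difference depended on single arrays, and its sign changed only without Rap1-/- replicate 4. Without Rap1-/- replicate 4 the median was 0.14 and 19 genes were lower in Rap1-/-, without Rap1-/- replicate 1 it was -0.19 and 23 genes were lower, and without Rap1-/- replicate 2 or 3 it was -2.27 or -1.91 and 40 genes were lower. Leaving out single WT arrays gave medians of -1.57 to -0.76 with 29 to 40 genes lower. The median was -0.87 within slide 1 and -1.33 within slide 2, and it was -0.42 after normexp background correction and -0.33 in the deposited values.

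The largest differences were those of Myh4, -5.60 ± 3.79 (SE, limma adjusted p = 0.878), Ckm, -2.28 ± 2.20 (0.897), and Ttn, -2.10 ± 2.19 (0.902). They rested on signals not above background, on Rap1-/- replicates 1 and 4 for Myh4 and on replicate 4 for Ckm and Ttn. Without Rap1-/- replicate 4 they were -3.09, -0.53 and -0.15, without Rap1-/- replicate 1 -3.10, -1.25 and -1.34, and without Rap1-/- replicate 2 -8.34, -3.87 and -3.67. With normexp background correction they were -3.29, -1.22 and -1.19, and in the deposited values -3.20, -1.15 and -1.14. The highest was that of Ldb3, 0.51 ± 0.68 (limma adjusted p = 0.918), on the probe that differed from its second probe. For the slow fibre genes the limma differences ran from -0.48 ± 1.72 for Myh7 to 0.04 ± 1.34 for Tnnc1. The median SE of the muscle genes was 1.67, against 0.14 for all features, so differences of several-fold between genotypes were not detectable in these genes.

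**Figure D4:**
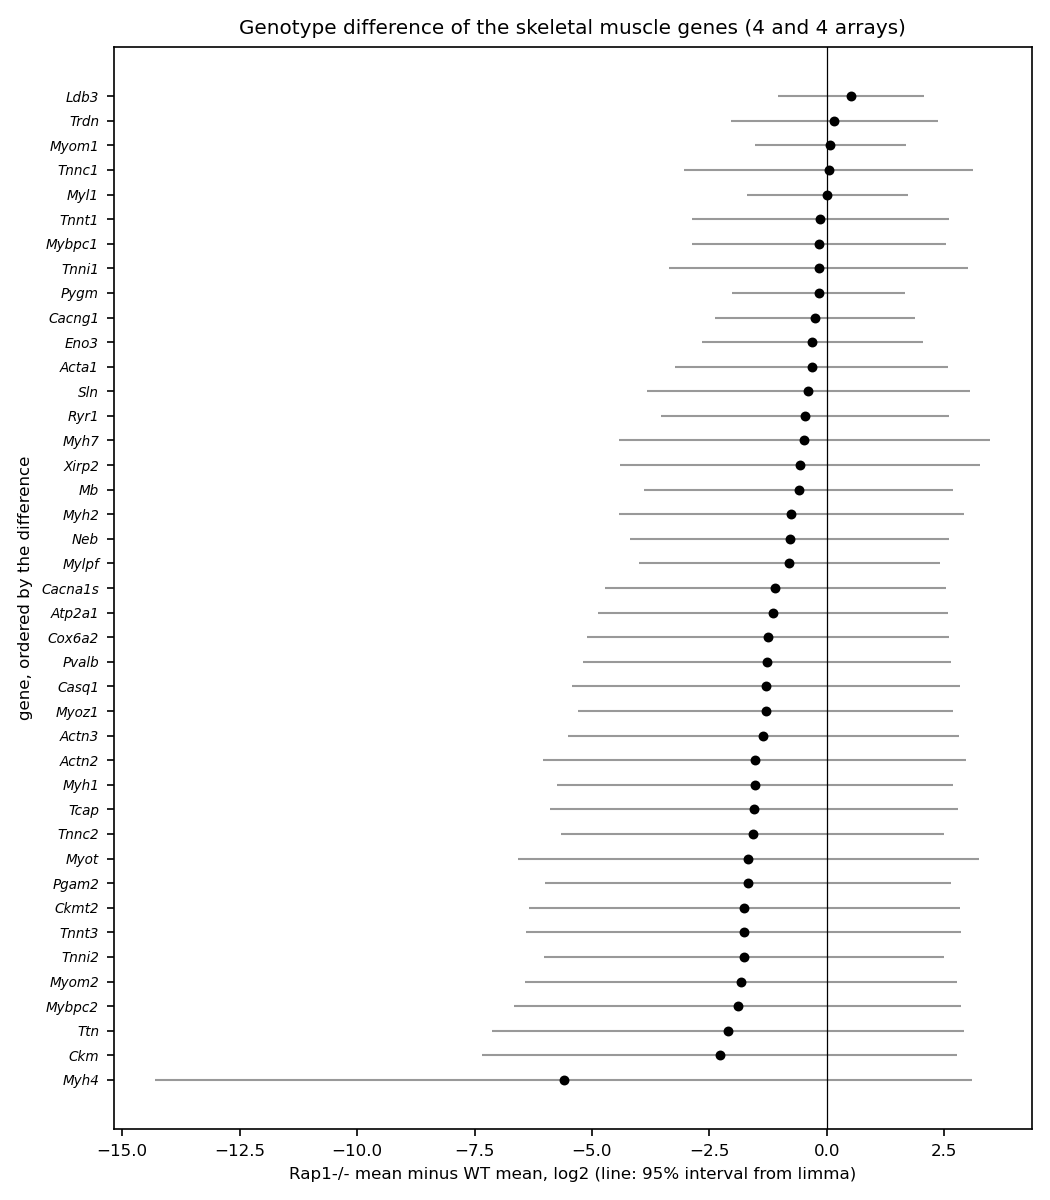
Rap1-/- mean minus WT mean in log2 units (horizontal axis, 4 arrays per genotype; points, differences; lines, 95% intervals from limma) for each of the 41 genes (vertical axis, ordered by the difference). Every interval crosses 0, 36 points lie below it, and the widest interval is that of Myh4 at -5.60.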

How the data were processed

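The 8 samples, 4 Rap1-/- and 4 WT, had been put by the authors on Agilent arrays with 1 dye, 1 array per sample. Per the file headers, Feature Extraction 10.7.3.1 read the images, with mm9 as the design's genome build. The deposited scanner files give spot signals and local backgrounds as linear intensity, of which the processed signal is corrected for background within the array and none is scaled between arrays. A deposited series table holds log2 values. For it the processing notes of the authors list limma and no version, and it matched normexp correction (offset 50) followed by quantile normalisation of the scanner values, so it served as an alternative.

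For each array, log2 of the processed signal was taken and its 75th percentile subtracted, and unflagged spots of a probe were averaged. Of 55681 probes, 33983 met the background filter of 4 arrays, and 13 without a value on some array were left out. RefSeq accessions gave a symbol to 26056 probes (46.8%). The brightest kept probe represented a gene, which left 25065 genes or features. The genotype contrast was fitted with limma 3.58.1 (lmFit and eBayes; R 4.3.3), p-values were adjusted by Benjamini-Hochberg over this whole table, the threshold was 0.05, and the method was checked on simulated data. The muscle genes, gene lists and alternatives were chosen with earlier results of these data known. Values on each array were given for the 6 genes of widest and the 3 of narrowest range as measured, signals not above background included, and the slow fibre genes, and up to 10 further genes were named by likeness and 2 per muscle list by range, while genes named beyond this were chosen after their values were seen. Where a signal was not above background, the lowest signal well above background on that array took its place if higher. The fold or range is then given as "at least", which is a convention and not a strict lower bound. By this range the 6 widest were Myh4, Ttn, Ckm, Myom2, Tnnt3 and Mybpc2. Normexp used the median spot signal. Promoter sequences came from RefSeq (GRCm38.p6). Plots used Python 3.11.15 and matplotlib 3.10.9. Lists of ovary, mesothelial, nerve, endothelial, erythroid, pancreas and lymphocyte genes were also examined, and 0 genes of these lists passed the test.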

Additional observations from a re-analysis of the deposited data

How the results depend on the processing

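The range of the average over the muscle genes was 5.45 to 7.06 in every alternative run, and 0 muscle genes passed the test in any of them. The number of all genes passing, 1, was 2 with normexp correction, with the deposited values and with a trended, robust variance, and 0 within slide 1 and within slide 2, where fewer arrays were compared. The 1 gene passing was higher in Rap1-/- with the brightest probe, but with the mean of probes the 1 gene passing was lower. The number of muscle genes lower in Rap1-/-, 36 of 41, was 35 with normexp correction, 33 in the deposited values and 32 with E1A spike-in scaling. Direction was followed gene by gene only for the muscle genes whose values on every array are given. Single genes among these changed direction, all without passing the test. With normexp correction Tnni1 was 0.14 and Ldb3 -0.066, in the deposited values Tnni1 was 0.25 and Ldb3 -0.041, and with E1A spike-in scaling, which shifted the median of all features to 0.17, Mybpc1 was 0.041, Tnni1 0.037 and Tnnt1 0.068. Myl1 was -0.043 as the mean of its probes and -0.14 within slide 2, where Tnnc1 was -0.42, and Ldb3 was -0.17 within slide 1. The cause was not tested. Leaving out each array gave -1.04 to 0.71 for Mybpc1, -1.84 to 0.51 for Myh7, -1.21 to 0.82 for Tnni1, -1.01 to 0.61 for Tnnt1, -0.95 to 1.06 for Tnnc1, -0.57 to 0.48 for Myl1, -0.49 to 0.61 for Myom1, -3.19 to 0.20 for Myot and -2.82 to 0.28 for Actn2. Without Myh4, which was left out only once its values had been seen, the range of the fast minus slow difference was 2.49, against 3.09 with it.

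Replicate numbers did not pair the samples, since same-numbered arrays correlated at -0.22 to -0.13 in their deviations from the group means and 0 of 4 correlated best with its own number. With the replicate number as a block, 1 gene and 0 muscle genes passed and the median difference stayed at -1.09. The precision is limited by 4 arrays per genotype, and the low end of the widest ranges rests on signals near background.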
